A study of Mus musculus with 5 samples.

Results

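The 9 genes described here belong to bone morphogenetic protein (BMP) signalling and were followed through single cells of the adult mouse brain and spinal cord: the targets Id1, Id2, Id3 and Id4, the secreted antagonists Nbl1 and Sostdc1, the ligands Gdf10 and Bmp4, and the receptor Bmpr1a. They were taken by name, and all 9 were among the 16347 genes of the count table. The study held 5 samples of 3-month-old mice. Lateral ventricle, the third ventricle, midbrain aqueduct and spinal cord came from FoxJ1CreERT2 R26TdT animals, 10 in all (5 females and 5 males), and a further midbrain sample came from 7 female Nkx2-2Cre R26TrapC animals. Foxj1 is a regulator of motile cilia, so the inducible Cre of the first line marks mainly ependymal cells, the ciliated lining of the ventricles, while Nkx2-2 is active in ventral progenitors and in the oligodendrocyte lineage. Each sample pooled the cells of several animals and was the only sample of its group. No test between groups was therefore possible, and every difference below is a difference between these samples or between sets of cells within one of them.

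BMP ligands bind a complex of type I and type II receptors on the cell surface, which activates the Smad1, Smad5 and Smad9 proteins. These enter the nucleus with Smad4 and switch on targets, of which the Id genes are the best known. Id proteins have a helix-loop-helix domain but no DNA-binding region; they capture E proteins such as Tcf3, Tcf4 and Tcf12 and so hold back differentiation factors. Antagonists bind the ligands outside the cell.

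The midbrain samples held several kinds of cell and were split by the reads of 3 marker genes, in CPM, reads of a gene per 1e6 reads in all genes. A midbrain cell with at least 1000 CPM of Ccdc153, a cilium gene, was a Ccdc153 cell. Otherwise, one with at least 500 CPM of Sspo, which encodes the secreted SCO-spondin of the subcommissural organ, was an Sspo cell, and one with at least 500 CPM of Mog, a myelin gene, was a Mog cell; the remainder are called other cells. This gave 10 sets: 240 cells of the lateral ventricle, 245 of the third ventricle and 114 of the spinal cord; 317 Ccdc153, 196 Sspo and 34 other cells of the Foxj1-line midbrain; and 19 Ccdc153, 12 Sspo, 243 Mog and 53 other cells of the Nkx2-2 line. The cells had from 108417 to 7182157 reads in genes. All 6 ependymal markers reached 10 CPM in the 3 unsplit regions, and 99.6% of lateral ventricle, 98.0% of the third ventricle and 86.8% of spinal cord cells passed the Ccdc153 threshold. The third ventricle columns carry a tanycyte name, but Rax, which defines tanycytes, was at 0 there and none of the 5 tanycyte markers in the table reached 10 CPM. Levels were computed from reads summed over the cells of a set. Spread within a sample is shown by blocks, runs of 96 successive cell numbers, used where a set had 10 or more cells in them. A gene was called higher or lower where a set differed at least 2-fold, with 0.1 CPM added to both (printed folds are plain ratios of the CPM), and any of the sets compared (for regions, any of the 4) reached 10 CPM.

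Id1, Id2 and Id3 were all at their highest among the Foxj1-line sets in the Sspo cells, and Id4 was at its lowest there. Id1 (chromosome 2, 152736251 to 152737410, GRCm38) stood at 1121 CPM (95% Poisson interval, counting error only, 1116 to 1126) in Sspo cells and at 49.0 CPM (48.2 to 49.9) in Ccdc153 cells of the same midbrain sample, 22.9-fold higher. Id3 (chromosome 4, 136143497 to 136145755) stood at 637 against 35.9 CPM, 17.8-fold higher. Id2 (chromosome 12, 25093799 to 25097140) stood at 428 against 77.7 CPM, 5.50-fold higher. Id4 (chromosome 13, 48261228 to 48266026) went the other way, at 19.7 against 60.9 CPM, 3.08-fold lower. Gdf10 was 2.09-fold higher, at 11.4 against 5.44 CPM, but 1.91-fold with TMM factors and 1.10-fold in cells with 10000 to 30000 CPM of immediate early genes, and its call was lost without block 3, 4, 6 or 7. Nbl1, at 24.4 against 18.0 CPM, was within 2-fold. Sostdc1 (1 read in Sspo cells, 3.52 CPM in Ccdc153 cells) and Bmp4 stayed under 10 CPM in both. Of 7 genes of the 9 that could be judged, 4 were higher and 1 lower, where 18.3% of all 10796 genes were higher and 14.9% lower by the same rule, and the median log2 ratio was 1.05 against 0.16 over all genes. Gdf10, 1 of the 4, reached 10 CPM only in the Sspo cells, so the rule could give it a higher call but not a lower one. With other scalings the median log2 ratio of all genes moved by -0.13 (TMM factors of edgeR) or -0.16 (the authors' normalisation), and the 4 Id genes kept these directions.

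The sequences before the RefSeq starts of Id2 and Id4 are shown because the 2 genes differed in direction in the Sspo cells. They are from RefSeq on GRCm38, 5′ to 3′ on the strand of the gene, and hold the 250 bases before the RefSeq start, or the first of them up to the next annotated exon of the gene. That of Id2 is cut in this way and lies inside its GENCODE gene, between exons and downstream of the gene's first base: chr12:25096254-25096342 (minus strand) for Id2 and chr13:48260866-48261115 (plus strand) for Id4.
Id2: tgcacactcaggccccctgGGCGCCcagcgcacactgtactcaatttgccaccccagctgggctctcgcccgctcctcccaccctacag
Id4: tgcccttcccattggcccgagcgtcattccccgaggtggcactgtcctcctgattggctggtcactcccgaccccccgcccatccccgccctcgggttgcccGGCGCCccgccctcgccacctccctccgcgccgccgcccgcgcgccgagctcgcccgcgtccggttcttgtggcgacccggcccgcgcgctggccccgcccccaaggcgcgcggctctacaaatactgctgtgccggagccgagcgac
Capitals mark GGCGCC, a GC-rich word related to sites that Smad proteins bind, which reads the same on both strands. It occurred once in each, in windows of 89 and 250 bases; among 32851 promoters, 2.73% hold it in the same 89 bases and 9.59% in all 250. The word CAGAC, or GTCTG on the other strand, also searched, was in neither window and is held by 17.7% and 42.2% of promoters in windows of those lengths. RefSeq promoters were matched for 7 of the 9 genes.

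**Figure D1:**
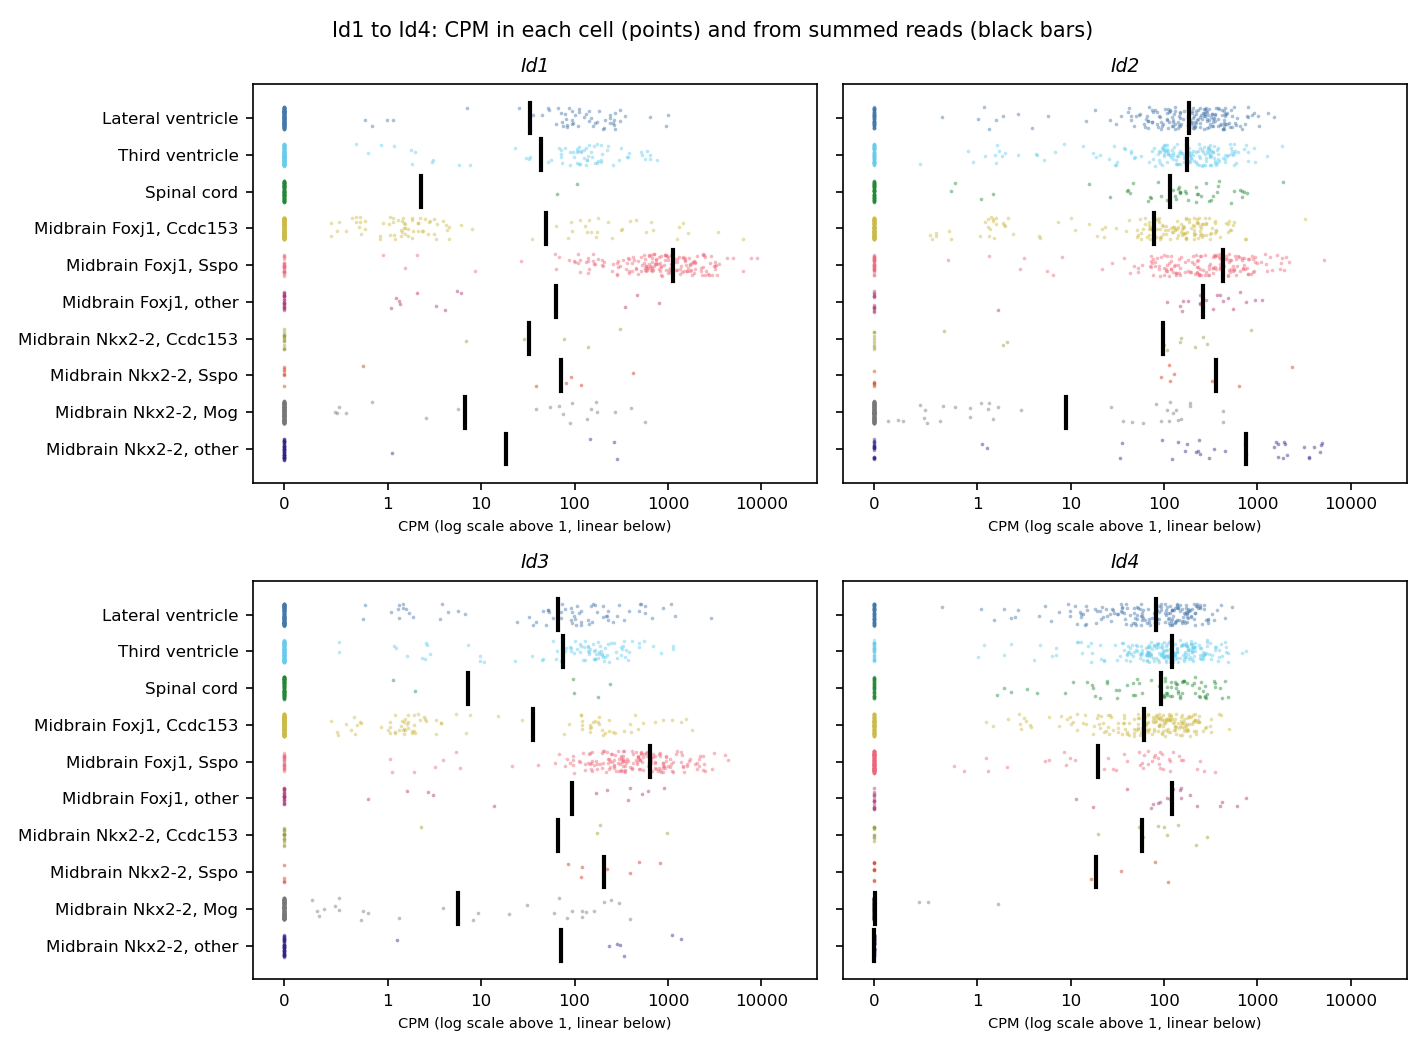
Id1 to Id4 in each cell (points, CPM on an axis that is logarithmic above 1 and linear below) and from summed reads (black bars) in the 10 sets of cells. Most Sspo cells of the Foxj1 line lie near the 1121 and 637 CPM bars for Id1 and Id3, most cells of the 3 unsplit regions are at 0 for these genes, and Id4 is at or near 0 in Mog and other cells of the Nkx2-2 line.

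The difference lay in how many cells held the transcripts as well as in their level. A read of Id1 was found in 89.3% of Sspo cells (exact 95% interval 84.1 to 93.2) and 28.4% of Ccdc153 cells (23.5 to 33.7), and of Id3 in 89.8% (84.7 to 93.7) and 27.4% (22.6 to 32.7). Many of those reads in Ccdc153 cells were few: the median over cells with a read was 2.28 CPM for Id1 and 3.31 CPM for Id3, against 796 and 419 CPM in Sspo cells. At least 10 CPM of Id1 was reached by 8.83% of Ccdc153 and 87.2% of Sspo cells, and of Id3 by 12% and 86.2%. Sspo itself had a read in 79.1% of the 301 Ccdc153 cells under its threshold, at 20.5 CPM, and the part of such low reads in these shares was not tested. Id2 was read in 84.2% of Sspo and 48.9% of Ccdc153 cells, and Id4 in 22.4% and 59.3%.

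The blocks showed the same order. Id1 ran from 622 to 1797 CPM over the 7 blocks of Sspo cells (median 883) and from 0.255 to 199 CPM over the 7 blocks of Ccdc153 cells (median 28.0). Id2 ran from 254 to 656 against 59.0 to 120 CPM, and Id3 from 379 to 1065 against 16.2 to 77.1 CPM. The block ranges of Id1, Id2 and Id3 therefore did not overlap; 6.55% of all genes were higher with no overlap. Id4 ran from 4.35 to 43.7 CPM in Sspo cells and from 27.8 to 93.3 CPM in Ccdc153 cells, ranges that overlap. Within a block Id4 was lower in Sspo cells in 7 of 7 cases, and Id1, Id2 and Id3 were higher in 7 of 7. Gdf10 was higher in 7 of 7 too, by a log2 ratio as low as 0.04. The share of all genes with 7 of 7 in 1 direction was not computed. Cell numbers were taken to follow the wells, so that the first 5 blocks belong to one sequencing project and the last 2 to another; in the first, Id1 stood at 1043 against 51.9 CPM, and in the second at 1289 against 42.2 CPM.

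**Figure D2:**
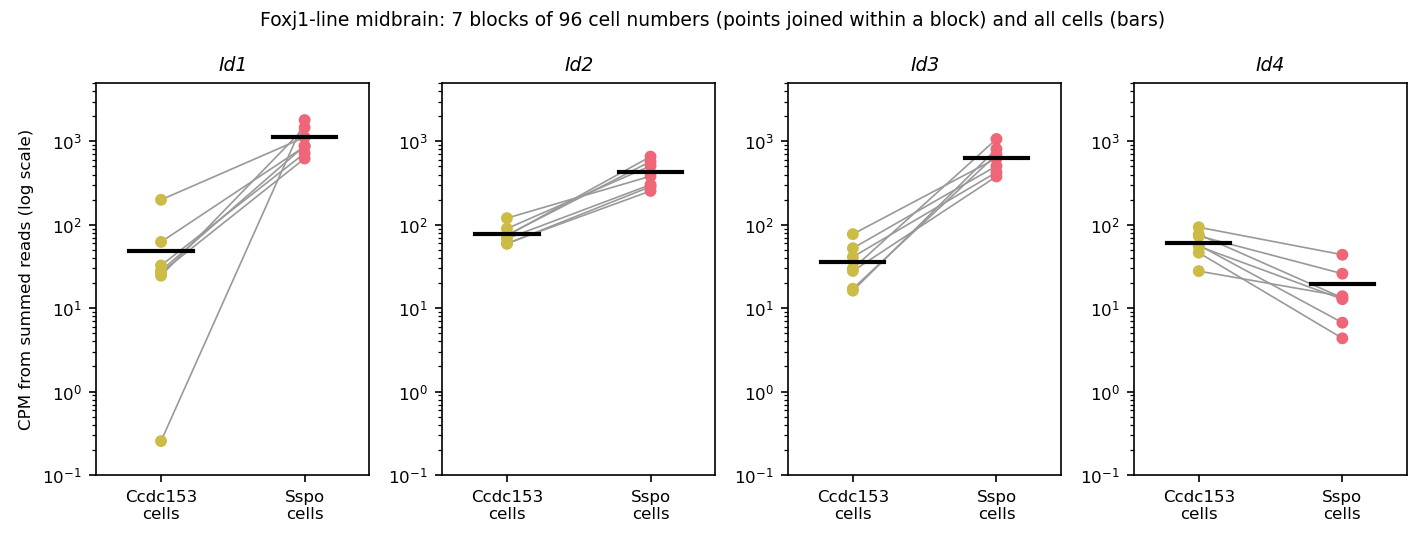
Id1 to Id4 in Ccdc153 and Sspo cells of the Foxj1-line midbrain (CPM from summed reads, log axis), with points for the 7 blocks joined within a block and bars for all cells. The Sspo end is higher for Id1, Id2 and Id3 and lower for Id4 on each of the 7 lines.

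The Id1 and Id3 levels of the Ccdc153 cells rested in large part on a few cells; those of Id2 and Id4 did not. Of the 317, 16 also passed the Sspo threshold and were counted as Ccdc153 cells only because that gene was asked first. These 16 held 924 CPM of Id1, 335 of Id2, 497 of Id3 and 29.4 of Id4. The other 301 held 12.1 CPM of Id1, 66.9 of Id2, 16.4 of Id3 and 62.2 of Id4, so that the Sspo cells stood 92.6-fold, 6.40-fold and 38.9-fold higher for Id1, Id2 and Id3 and 3.15-fold lower for Id4. The 16 cells were thus nearer to the Sspo cells than to the other Ccdc153 cells for all 4 genes.

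Immediate early genes, which dissociation can induce, also differed between Sspo and Ccdc153 cells of the Foxj1-line midbrain. Of 10 such genes 9 were higher in the Sspo cells, and their summed level had a median of 35265 CPM in Sspo cells and 716 CPM in Ccdc153 cells. Among cells with 10000 to 30000 CPM of these genes, leaving out the 16 cells, 56 Sspo cells held 816 CPM of Id1 and 46 Ccdc153 cells held 45.6 CPM, 17.9-fold higher. In the same cells Id2 stood at 311 against 75.0 CPM, Id3 at 623 against 12.6 CPM and Id4 at 13.0 against 65.1 CPM. The medians of the summed level within that range were 22704 and 15429 CPM, and the part of these genes in the Id values was not tested. Across the 196 Sspo cells, Id1 correlated with the summed level at r = 0.47 (log2 of CPM + 1, cells of 1 sample that share depth and handling), Id2 at 0.13, Id3 at 0.09 and Id4 at 0.11. By ranks (Spearman) the values were 0.33, 0.06, 0.06 and 0.12, in the same order of genes.

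The Nkx2-2 line gave the same directions in few cells. Its 12 Sspo cells held 70.9 CPM of Id1, 360 of Id2, 207 of Id3 and 18.5 of Id4, and its 19 Ccdc153 cells 32.6, 96.1, 66.8 and 58.3 CPM. Id1 was 2.18-fold, Id2 3.74-fold and Id3 3.09-fold higher and Id4 3.15-fold lower, in a comparison where 32.3% of genes were higher and 25.6% lower. The median summed immediate early level was 6394 CPM in the Sspo cells and 7875 CPM in the Ccdc153 cells of this line. Single cells carried much of it: 1 cell gave 56.3% of the Id1 and 62.4% of the Id2 reads of the Sspo set, and 1 cell gave 89.3% of the Id3 reads of the Ccdc153 set. Oligodendrocyte markers summed to 4350 CPM in the Sspo set and 5902 CPM in the Ccdc153 set of this line, against 63.6 and 88.9 CPM in the Foxj1 line, and their part in the result was not tested. Both Sspo sets held the subcommissural organ markers Sspo and Spdef, at 9936 and 1786 CPM in the Foxj1 line and 7289 and 1421 CPM in the Nkx2-2 line; the 6 ependymal markers summed to 2019 and 1984 CPM there, against 12458 and 13497 CPM in the Ccdc153 cells.

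**Figure D3:**
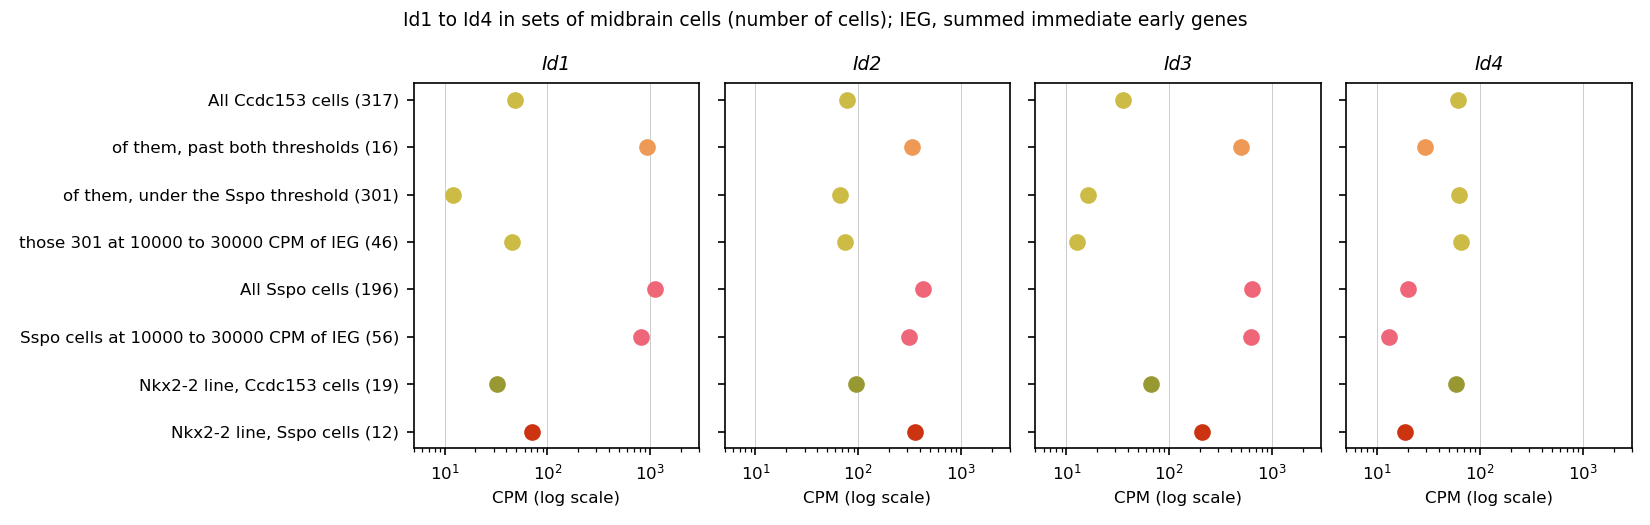
Id1 to Id4 (CPM from summed reads, log axis) in sets of midbrain cells, with the number of cells in brackets; IEG is the summed level of 10 immediate early genes. The 16 cells past both thresholds lie near the Sspo cells for each gene, and the 2 sets with 10000 to 30000 CPM of immediate early genes lie apart.

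Per kilobase of exon, the Id genes took different shares in the 2 kinds of cell. In Sspo cells the levels were 966 CPM per kb for Id1, 356 for Id3, 175 for Id2 and 5.13 for Id4. In Ccdc153 cells they were 42.3, 20.0, 31.9 and 15.8 CPM per kb, in the same order of genes. Id4 was thus the lowest of the 4 in both sets, by far more in the first. Id4 overlaps 2 antisense genes and the counting strand is not given in the sources used here, so its reads cannot be told apart from theirs.

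Other genes of the pathway were counted from lists of ligands, receptors, antagonists, mediators, response genes and E proteins, of which 60 of 76 were in the table. In Sspo against Ccdc153 cells 36 reached 10 CPM, 14 were higher and 9 lower, beside 18.3% and 14.9% of all genes, with a median log2 ratio of 0.45 against 0.16 over all genes. A gene under 10 CPM in 1 of the 2 sets could be called in 1 direction only. Of those named below, this held for Bmpr1b, Fstl1, Eng, Rgma, Crim1, Htra1, Hey1 and Klf10. Among receptors, 5 of 10 were higher and 2 lower. Bmpr1b, a type I receptor, stood at 141 against 8.39 CPM, at 142 CPM in the 16 cells past both thresholds, and at 177 against 0 CPM in the Nkx2-2 line. Acvr1, another type I receptor, stood at 51.8 against 15.2 CPM, and Tgfbr3, a co-receptor, at 198 against 50.1 CPM. Rgmb and Neo1 were the other 2 that were higher. The lower receptors were Eng, a co-receptor (2.35 against 15.8 CPM), and Rgma, a co-receptor of BMP ligands (3.21 against 11.4 CPM). Bmpr1a (chromosome 14, 34410734 to 34503341), the type I receptor among the 9 genes, differed little, at 20.8 against 25.2 CPM. Of 7 other antagonists 3 were higher, Fstl1 (12.1 against 3.40 CPM), Dand5 (34.0 against 15.5 CPM) and Bambi, and 3 lower, Fstl4 (15.7 against 39.9 CPM), Crim1 (6.08 against 16.7 CPM) and Htra1 (8.08 against 189 CPM). Among 5 response genes, a list that also holds Bambi, 3 were higher: Msx1 (913 against 295 CPM), Hes1 (744 against 85.0 CPM) and Bambi, a decoy receptor (232 against 67.1 CPM). The other 2 were lower, Hey1 at 0.330 against 145 CPM and Klf10 at 4.64 against 20.4 CPM. Tcf12, an E protein that Id proteins can bind, stood at 119 against 29.1 CPM, and Tcf3 and Tcf4 were within 2-fold.

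Across the ependymal regions of the Foxj1 line, Id1 and Id3 were nearly missing from the spinal cord while Id2 and Id4 stayed within 2-fold of the other regions. The 4 comparisons of 1 region with the mean of the other 3 share their samples, and the midbrain enters with its Ccdc153 cells. The spinal cord enters unsplit, with 86.8% of its cells past the Ccdc153 threshold. Its cells had a median of 3979 genes with a read, against 4866 to 5435 in the other regions. Their ependymal markers summed to 7073 CPM, against 11887 to 12549 CPM. The part of these differences in the regional values was not tested. In the spinal cord Id1 stood at 2.29 CPM against 42.1 CPM, 18.4-fold lower, and 2 of 114 cells held a read (1.75%, 0.213 to 6.19). Id3 stood at 7.29 against 59.1 CPM, 8.11-fold lower, and 6 cells held a read. Id2 stood at 115 against 146 CPM and Id4 at 92.8 against 87.4 CPM, both within 2-fold. Per kilobase of exon, the spinal cord held 47.4 CPM of Id2 and 24.1 of Id4 but 1.98 of Id1 and 4.07 of Id3.

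Nbl1, Sostdc1 and Gdf10 were also low in the spinal cord. Gdf10 had no read in 114 cells, which allows up to 0.0317 CPM (3 reads) and makes it at least 333-fold lower than the 10.6 CPM of the other regions. Nbl1 stood at 7.44 against 36.7 CPM, with reads in 5 cells. Sostdc1 stood at 1.93 against 20.3 CPM, and 1 cell held all its 183 reads. In all, 5 of 8 genes that could be judged were lower and 0 higher, where 12.3% of all genes were lower, and the median log2 ratio was -2.64 against -0.01 over all genes. All 5 stood under 10 CPM in the spinal cord and could be judged only through the other regions. The minimum thus favoured a lower call for them. The 2 spinal cord blocks lay below the blocks of all 3 other regions for Id3 and Gdf10, among the 5, as for 4.91% of all genes. Without the 16 midbrain cells Id1 was 13.0-fold (2.29 against 29.8 CPM) and Id3 7.22-fold lower (7.29 against 52.6 CPM). The blocks of spinal cord cells ran from 1.96 to 2.86 CPM for Id1 and overlapped those of the midbrain, where 1 block of 51 Ccdc153 cells held 0.255 CPM. Bmpr1a stood at 32.0 CPM, but at 18.7 and 55.2 CPM in the 2 blocks, and would be called higher without the first (55.2 against 23.5 CPM). The 8 other antagonists that could be judged went both ways: Noggin (Nog, 11.9 against 2.37 CPM), Fstl1 (47.2 against 8.81 CPM) and Dand5 (39.7 against 18.6 CPM) were higher, and Fstl4 (12.2 against 30.4 CPM), Htra1 (66.4 against 214 CPM) and Bambi (20.6 against 51.4 CPM) lower. Msx1 was lower too, at 33.3 against 250 CPM. Of the 40 pathway genes that could be judged there, 12 were higher, beside 7.59% of all genes, and 12 lower, beside the 12.3% above. Here too the minimum favoured 1 direction for genes under 10 CPM on 1 side. Nog, for example, reached 10 CPM only in the spinal cord. Of the 10 immediate early genes 4 were higher in the spinal cord and 9 lower in the lateral ventricle, where 5.53% of all genes were lower, and their part in the regional values was not tested.

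In the third ventricle 4 of 8 genes were higher, where 4.05% of all genes were: Nbl1, Sostdc1, Gdf10 and Id3. Nbl1 (chromosome 4, 139082284 to 139092993), also known as DAN, a secreted protein that binds BMP ligands, stood at 75.1 CPM against 17.0 in the lateral ventricle, 18.0 in midbrain Ccdc153 cells and 7.44 in the spinal cord, 5.32-fold above their mean. Its blocks in the third ventricle held 66.2 to 88.1 CPM and lay above every block of the other regions, of which the highest held 36.4 CPM; 1.23% of all genes were higher with no overlap. It was read in 44.1% of cells there (37.8 to 50.5) and in 11.7, 10.7 and 4.39% of cells of the other regions. Sostdc1 (chromosome 12, 36314139 to 36318452), a secreted antagonist of BMP and Wnt signalling, stood at 33.4 against 9.80 CPM, 3.40-fold higher, with the lateral ventricle next at 24.0 CPM. Gdf10 (chromosome 14, 33923587 to 33937983), a ligand related to Bmp3, stood at 14.2 against 5.83 CPM, but at 12 CPM in the lateral ventricle. Id3, at 74.7 against 36.6 CPM, was 2.04-fold higher. It fell below 2-fold when any 1 of 6 blocks was left out, for example to 69.5 against 36.6 CPM without block 1 of the third ventricle, and Gdf10 did so without the second lateral ventricle block (14.2 against 7.35 CPM). Id4 stood at 120 CPM and its blocks, from 103 to 156 CPM, lay above those of the other regions, but the difference was 1.53-fold. The share of all genes with blocks above those of the other regions at any fold was not computed. Id1 was also higher without the 16 midbrain cells, at 44.1 against 15.8 CPM, or when block 2 of the midbrain was left out, at 44.1 against 21.0 CPM.

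In the lateral ventricle none of the 9 genes was called (7.38% of all genes were, in either direction), and Nbl1 came nearest at 17.0 against 33.5 CPM, 1.97-fold lower. Of its 3 blocks 1 held 36.4 CPM and the others 7.05 and 8.20 CPM. Without that block the lateral ventricle stood at 7.56 CPM, and Nbl1 was lower by the rule, as it was without midbrain block 3 or block 2 of the third ventricle or spinal cord. Gdf10 was higher without the same lateral ventricle block (16.6 against 6.55 CPM), and Id3 and Sostdc1 without block 1 (80.0 against 39.3 and 29.3 against 12.9 CPM). Across the 240 cells Nbl1 was read in 28 and Gdf10 in 29 (12.1%), and no cell held both (r = -0.12). The block with the most Nbl1 held the least Gdf10, 2.59 CPM against 16.8 and 16.4 CPM in the others. In the third ventricle 17 cells held both, 17 of the 34 with Gdf10 (r = 0.08). They made 15.7% of the 108 cells with Nbl1, near the 13.9% of all cells there that held Gdf10. Whether either overlap differs from that of unrelated genes was not tested. Id1 and Id3 were read together in 30 lateral ventricle cells, 55.6% of those with Id1 and 42.9% of those with Id3, with r = 0.37 over 240 cells, and r was 0.30 over the 245 cells of the third ventricle.

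In midbrain Ccdc153 cells Id2 and Sostdc1 were lower, where 4.85% of all genes were. Sostdc1 stood at 3.52 against 19.7 CPM, 5.61-fold lower, and was read in 5 of 317 cells (1.58%, 0.514 to 3.64). It could be judged only through the other regions, and the minimum thus favoured a lower call. Id2 stood at 77.7 against 159 CPM, 2.04-fold lower, a value at the limit: it was 1.83-fold with the authors' normalisation, 1.39-fold with halved cell thresholds and below 2-fold without any 1 of 5 blocks. Id1 depended on the 16 cells past both thresholds: it stood at 49.0 against 26.5 CPM with them, 1.85-fold higher, and at 12.1 against 26.5 CPM without them, 2.19-fold lower. Id3 stood at 35.9 against 49.6 CPM with them and at 16.4 against 49.6 CPM without them, 3.03-fold lower. Single blocks changed further calls: Id1 was higher without midbrain block 7 (53.6 against 26.5 CPM), midbrain block 3 or the last block of the third ventricle, Nbl1 lower without midbrain block 6 (15.1 against 33.2 CPM) or 1 (16.2 CPM), and Gdf10 lower without midbrain block 7 (4.07 against 8.75 CPM).

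**Figure D4:**
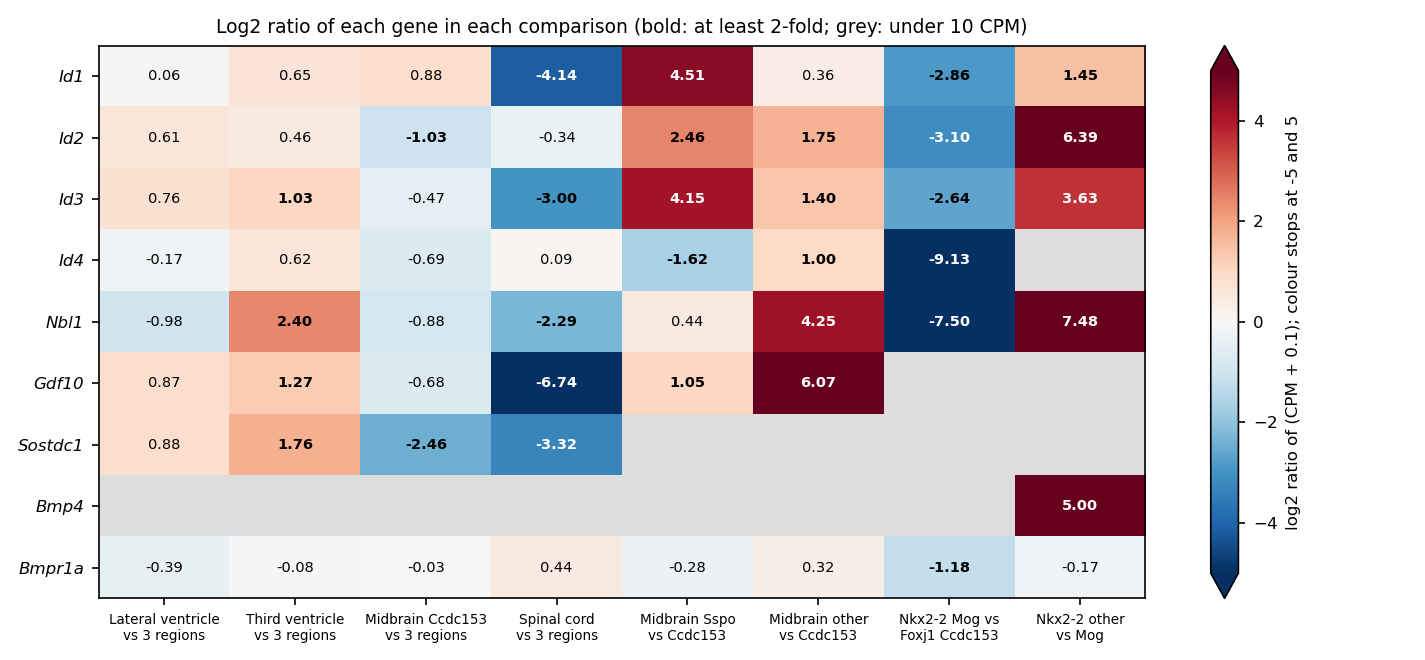
Log2 ratio of CPM + 0.1 for the 9 genes (rows) in the 8 comparisons (columns), coloured from blue (lower) to red (higher) with the colour held at -5 and 5; bold values passed the 2-fold rule and grey fields were under 10 CPM. The Sspo column is red for Id1, Id2 and Id3 and blue for Id4, and the spinal cord column is blue for Id1 and Id3 but near 0 for Id2 and Id4.

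Nbl1 and Gdf10 were at their highest in the 34 other cells of the Foxj1-line midbrain, which were set against the same Ccdc153 cells as the Sspo cells above and the Mog cells that follow. Gdf10 stood at 373 CPM against 5.44 in the Ccdc153 cells, 68.6-fold higher, and was read in 64.7% of these cells (46.5 to 80.3). Nbl1 stood at 345 against 18.0 CPM, 19.2-fold higher, and was read in 67.6% (49.5 to 82.6). Id2 (261 CPM, 3.36-fold), Id3 (94.8 CPM, 2.64-fold) and Id4 (122 CPM, 2.01-fold) were higher too, which made 5 of 7, where 21.9% of all genes were higher. Gdf10 reached 10 CPM only in the other cells, so the rule could give it a higher call but not a lower one. The call for Id4 was at the limit, at 1.96-fold without the 16 cells and lost without block 2, 6 or 7, and that for Id3 reversed when the cell thresholds were halved. For Id1 1 cell gave 59.8% of the reads. Astrocyte markers summed to 6223 CPM in these cells, against 1540 CPM in Ccdc153 cells, and all 6 reached 10 CPM; in 33 of the 34 the astrocyte list exceeded the microglia list, and those 33 held 385 CPM of Gdf10 and 355 of Nbl1. Other marker lists were also higher in these cells than in Ccdc153 cells. The 3 pericyte and smooth muscle markers in the table summed to 1434 against 26.8 CPM, of which Vtn made 1387 CPM, while Tagln stood at 0.146 against 5.51 CPM. The 5 microglia markers summed to 770 against 8.18 CPM and all reached 10 CPM, and the 6 oligodendrocyte markers summed to 1203 against 88.9 CPM with Mog at 0. Of the immediate early genes 9 of 10 were lower, where 24.1% of all genes were. The part of these in the result was not tested. None of the 7 blocks held 10 such cells, so there is no block range.

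The upstream sequences of these 2 genes, shown because both were highest in the same cells, are from the same table, 5′ to 3′ on the strand of the gene: chr4:139092994-139093220 (minus strand) for Nbl1 and chr14:33923337-33923586 (plus strand) for Gdf10.
Nbl1: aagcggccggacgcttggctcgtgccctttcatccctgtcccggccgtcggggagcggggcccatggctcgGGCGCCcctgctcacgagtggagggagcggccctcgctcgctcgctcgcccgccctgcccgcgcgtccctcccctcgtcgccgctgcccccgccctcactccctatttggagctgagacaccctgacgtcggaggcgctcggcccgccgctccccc
Gdf10: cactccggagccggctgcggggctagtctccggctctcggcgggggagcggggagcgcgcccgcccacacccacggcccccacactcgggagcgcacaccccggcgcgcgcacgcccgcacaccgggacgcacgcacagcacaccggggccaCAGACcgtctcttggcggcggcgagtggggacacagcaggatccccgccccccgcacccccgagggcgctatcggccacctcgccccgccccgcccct
The capitals mark GGCGCC in Nbl1, held by 8.50% of windows of its 227 bases, and CAGAC in Gdf10, held by 42.2% of windows of 250 bases. Each window lacked the other of these words.

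In the Nkx2-2 line the Mog cells were lower in all 6 genes that could be judged (Id1, Id2, Id3, Id4, Nbl1 and Bmpr1a) against the Ccdc153 cells of the Foxj1 line, where 39.1% of all genes were lower and the median log2 ratio was -0.52. All but Bmpr1a stood under 10 CPM in Mog cells and could be judged only through the Ccdc153 cells. For them the rule could give a lower call but not a higher one. Among the genes under 10 CPM in both sets, Gdf10 and Sostdc1 were also lower and Bmp4 higher (4.25 against 0.844 CPM). The Mog and Ccdc153 cells compared came from different lines, pools and, in part, sexes and sequencing projects. These cannot be told apart from the kind of cell. The 19 Ccdc153 cells of the Nkx2-2 line itself held 32.6 CPM of Id1, 96.1 of Id2, 66.8 of Id3 and 58.3 of Id4. They also held 4.43 CPM of Nbl1 and 19 of Bmpr1a. All 6 values were above those of the Mog cells of the same sample. Single cells gave 89.3% of the Id3, 98.9% of the Nbl1 and 67.2% of the Bmpr1a reads of this Ccdc153 set. Without its highest cell Bmpr1a stood at 6.57 CPM there, below the Mog cells (11.1 CPM, or 9.95 CPM without their highest cell). Id1, Id2, Id3 and Id4 stayed above the Mog cells without theirs, Id1 at 13.9 and Id3 at 7.65 CPM. Nbl1 fell to 0.0509 CPM, against no read in Mog cells. Id4 had 3 reads in 243 Mog cells, 0.00850 CPM (0.00175 to 0.0249), against 60.9 CPM. Nbl1 had none, at least 2113-fold lower than 18.0 CPM. Id2 stood at 8.98 against 77.7 CPM, 8.66-fold lower, and its 5 blocks (5.93 to 12.5 CPM) lay below those of the Ccdc153 cells, as did those of Id3, Id4 and Nbl1; 28.8% of all genes were lower in this way. Id1 stood at 6.68 against 49.0 CPM and Id3 at 5.68 against 35.9 CPM. Without the 16 cells Id1 was 1.81-fold lower and no longer called, and with doubled cell thresholds Id3 was 1.58-fold lower (9.16 against 14.5 CPM). Bmpr1a stood at 11.1 against 25.2 CPM, a call lost without block 7 of the Ccdc153 cells or block 2 of the Mog cells. With TMM factors the median of all genes moved by 0.66 and the share of higher genes among those called from 30.8 to 51.5%; with the authors' normalisation the share was 47.6%. Bmpr1a was then 1.43-fold and 1.68-fold lower, and the other 5 genes remained at least 2-fold lower.

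Among the 53 other cells of this line, Id2 reached its highest level of all 10 sets, 762 CPM, against 8.98 CPM in Mog cells, 84.9-fold higher. Its 3 blocks held 320, 597 and 951 CPM, above all 5 blocks of Mog cells; 20.0% of all genes were higher with no overlap. Id3 (71.5 CPM), Id1 (18.4 CPM), Nbl1 (17.7 CPM) and Bmp4 (139 CPM) were higher as well, 5 of 6, where 41.5% of all genes were. All 5 stood under 10 CPM in Mog cells and could be judged only through the other cells. For them the rule could give a higher call but not a lower one, and the Bmp4 level rested on 1 cell. TMM factors moved the median of all genes by -0.77 and the share of higher genes among those called from 78.3 to 49.7%, and the authors' normalisation moved that share to 51.6%. Id1 was then 1.61-fold and 1.20-fold higher, and its call was also lost without block 1 or 5; that of Nbl1 was lost without block 3 (8.54 against 0 CPM). All 9 immediate early genes that could be judged were higher in these cells, and their part in the result was not tested. By marker lists, 24 of these cells had more astrocyte than oligodendrocyte precursor reads and 29 the reverse. The 24 held 1940 CPM of Id2, 183 of Id3 and 52.4 of Id1; the 29 held 122 CPM of Id2, 11.1 of Id3 and no Id1 read. Id4 and Gdf10 had no read in any of the 53, which allows Id4 up to 0.0685 CPM. For Gdf10, Nbl1 and Id4 the 33 cells of the Foxj1 line with more astrocyte than microglia marker reads held 385, 355 and 126 CPM, and the 24 of the Nkx2-2 line with more astrocyte than precursor marker reads 0, 23.6 and 0 CPM. These cells were chosen by different rules, and the sets they come from also differed in ependymal (1370 against 50.8 CPM), pericyte and smooth muscle (1434 against 2.60 CPM) and microglia markers (770 against 0.0228 CPM), whose part in these values was not tested.

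Bmp4 (chromosome 14, 46383520 to 46390669), a ligand with many roles in development, was read in few cells. It stood at 0 to 4.25 CPM in 9 of the 10 sets, and 7 of 1473 cells held at least 10 CPM. In the Nkx2-2 line 1 Mog cell held 1430 CPM and 1 other cell 2635 CPM, which made up 99.7% of the reads of the first set and all but 1 read of the second. Both cells held Gpr17 (6335 and 4532 CPM) and Neu4 (2168 and 2008 CPM), which mark oligodendrocyte precursors on the way to myelin formation, no Pdgfra, the marker of the earlier precursor, and no read of Id1, Id2, Id3 or Id4. The 5 other cells, 1 in each of the 4 Foxj1-line regions and 1 Sspo cell, held 41.9 to 329 CPM and no Gpr17. The difference between other and Mog cells vanished without the highest cell of each (0.0241 against 0.0142 CPM) or without block 2 (0 against 5.51 CPM). Bmp4 and Bmpr1a overlap antisense genes, with the same limit as for Id4.

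**Figure D5:**
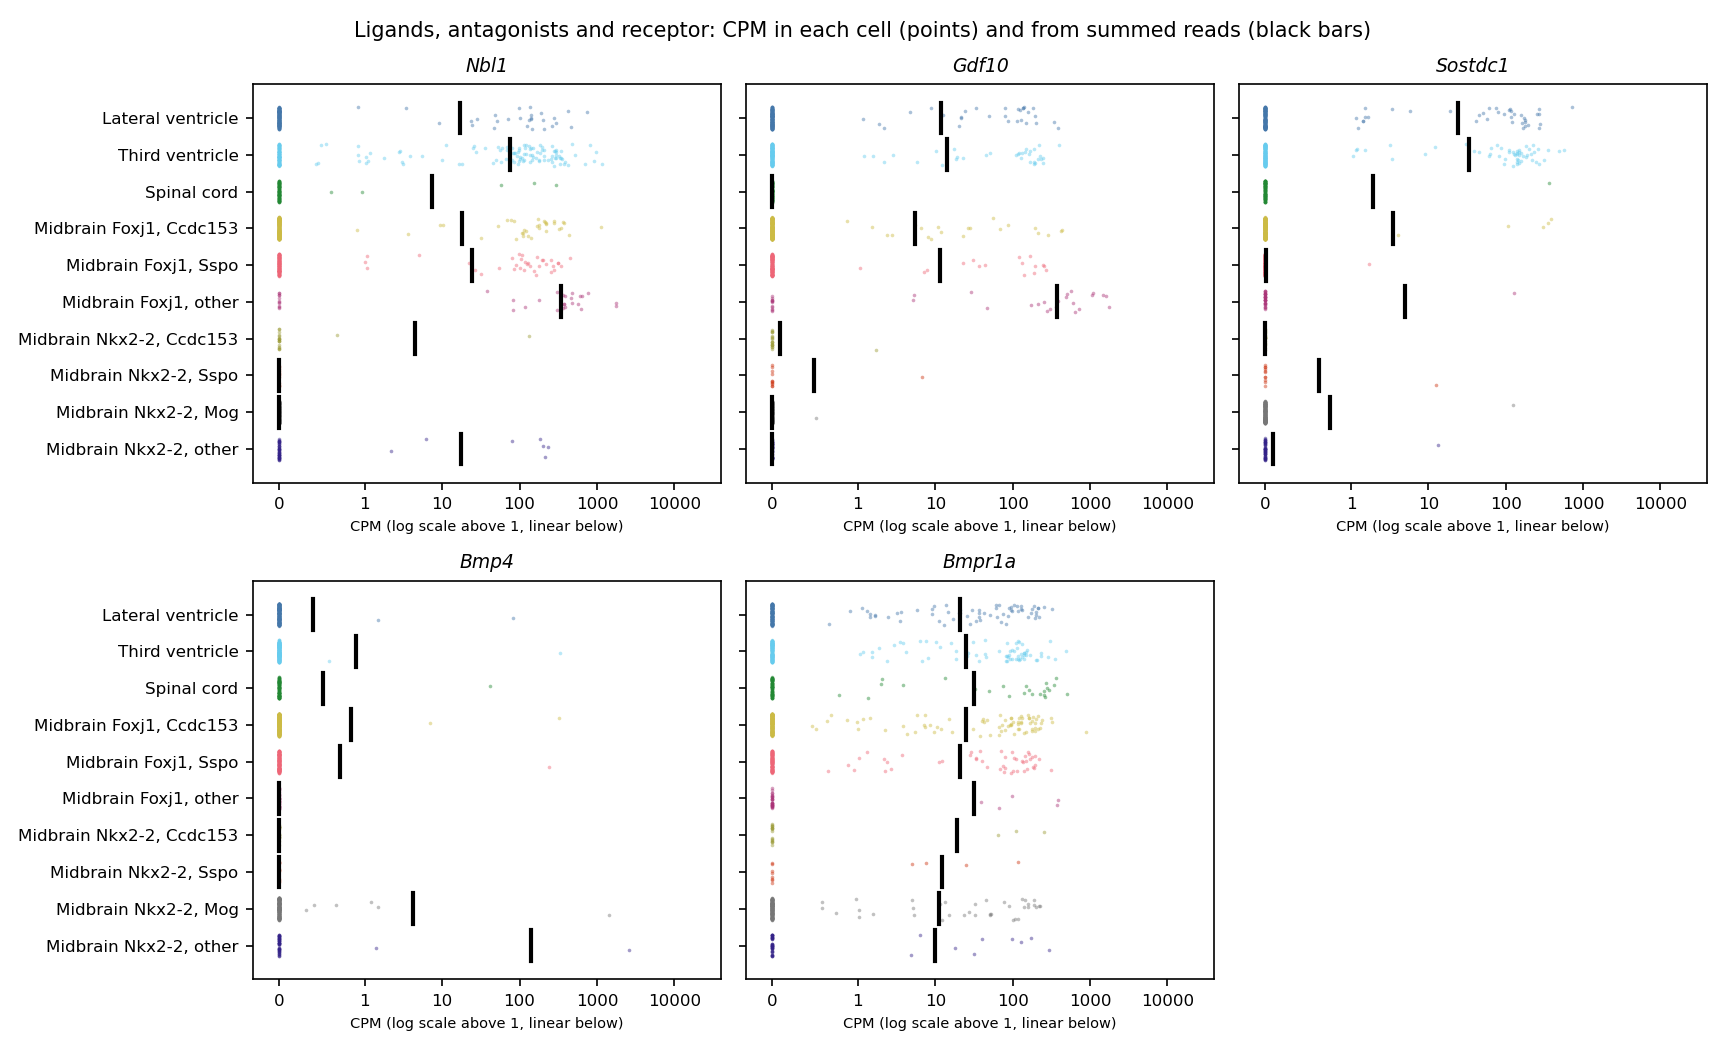
Nbl1, Gdf10, Sostdc1, Bmp4 and Bmpr1a in each cell (points, CPM on an axis that is logarithmic above 1 and linear below) and from summed reads (black bars) in the 10 sets. The Bmp4 bars of the Nkx2-2 Mog and other sets, at 4.25 and 139 CPM, stand on single cells, and Bmpr1a lies between 9.84 and 32.0 CPM in all sets.

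Bmpr1a was the most even of the 9 genes, from 9.84 CPM in other cells of the Nkx2-2 line to 32.0 CPM in the spinal cord. The share of cells with a read lay between 14.7 and 33.3%. Where both neighbours in its order had blocks, the ranges overlapped. For Id1 the order from the top was Sspo cells of the Foxj1 line (1121 CPM), Sspo cells of the Nkx2-2 line (70.9 CPM) and other midbrain cells (63.2 CPM), and midbrain Ccdc153 cells, the third ventricle and lateral ventricle (49.0, 44.1 and 33.1 CPM) had overlapping blocks. Over the 10 sets and 13381 genes with at least 10 CPM in any, Id3 ranked second in likeness to Id1, and Id1 second to Id3 (r = 0.917 of log2 of CPM + 1). The genes most like Id2 were Jam2 (0.976), Pan3 and Tmem176b, those most like Id4 were Rasa4 (0.984), Ptgr1 and Cidea, and those most like Sostdc1 were Aoc1 (0.964), Plb1 and C3. The 10 sets come from 5 samples, so these values describe patterns only.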

How the data were processed

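Cells were sorted into 96-well plates and made into Smart-seq2 libraries, which carry no molecular identifiers, per the labels' protocols. Reads were mapped with STAR 2.3.1o to mm10 and handled in Seurat 3, per the submitters' processing notes. The authors deposited raw counts per gene and cell, used for all main values, and log2 values of normalized counts, used as an alternative. Cell names were matched to samples by region (Forebrain to the lateral ventricle, Tanycytes to the third ventricle), and 0 columns were left unassigned. The cells have 108417 or more reads, so intervals are narrow but cover counting error only; reads of 1 molecule are not independent. Counts were summed by set and scaled to CPM (Python 3.11.15, pandas 2.3.3, scipy 1.17.1); edgeR 4.0.16 gave TMM factors. The code was tested on simulated data. Poisson and Clopper-Pearson intervals are exact. Genes were the 9 listed, those of the pathway lists past the 2-fold rule in a comparison, and the 3 most alike. Genes and lists were chosen with earlier results of these data known. Alternatives changed scaling, thresholds, the minimum and added CPM, cells and blocks. No doublet caller was run, and proteins were not analysed here.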

Additional observations from a re-analysis of the deposited data

How the results depend on the processing

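No paired analysis was possible because each group is 1 sample, numbered 1 only as a name; the comparison of cells within blocks of the Foxj1-line midbrain, in the report, pairs cells of 1 sample and not replicates. In the lateral ventricle the count of genes called, 0, became 2 with halved and 1 with doubled cell thresholds, 2 without the cell with the most reads of each gene, 1 without the cells past both thresholds (chosen after seeing the data), and 0 to 2 when 1 block was left out. In midbrain Ccdc153 cells the count of 2 became 4 with doubled thresholds, 4 without the cells past both thresholds, 1 without the 2% of cells with the most genes, and 1 to 4 without 1 block. Among other cells of the Nkx2-2 line 5 became 3 without the cell with the most reads. The other 5 counts stayed within 1.5 times. The 2 called ratios that reversed were Id3 in other against Ccdc153 midbrain cells, to a log2 ratio of -0.42 with halved thresholds, and Bmp4 in other against Mog cells, from -5.81 to 10.65 when 1 block was left out (lowest without block 2). The causes were not tested. TMM factors changed the sign of 0 of 58 log2 ratios and the authors' values of 3, none of them called. Thinning each cell to 100000 reads moved 17 of 90 shares of cells past their interval. With 1 sample a group, differences between animals and regions cannot be told apart, and sets of 12 to 34 cells rest on few cells.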

Other observations

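Other ligands and receptors of the pathway had regional patterns of their own. Bmp6, a BMP ligand, stood at 33.9 CPM (lateral ventricle), 34.3 (the third ventricle), 29.0 (midbrain Ccdc153 cells) and 53.5 (Sspo cells), but at 0.0106 CPM in the spinal cord and 0.00850 CPM in Mog cells. Acvrl1, a type I receptor best known from blood vessels, and its co-receptor Eng were higher in the third ventricle, at 28.7 against 2.36 CPM and 35.0 against 9.15 CPM; Kdr, an endothelial marker and the only one of that list in the table, stood at 4.76 CPM there and 15.9 CPM in the lateral ventricle. Atoh8, a BMP response gene, was higher in the third ventricle too, at 18.3 against 1.82 CPM. Bmpr2, the main type II receptor, stayed at or under 1.54 CPM in all 10 sets, while Acvr2a, another type II receptor, stood at 15.5 to 22.8 CPM in the 4 ependymal regions.

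In the Nkx2-2 line, the 29 cells with more precursor than astrocyte marker reads held 122 CPM of Bmp7, a ligand, and 46.1 CPM of Bmper, an extracellular modulator of BMP ligands. Over all 53 other cells of this line Bmp7 stood at 109 CPM, nearly as high, and Bmper at 29.8 CPM. Mog cells held 0.0539 CPM of Bmp7 and 0.0255 CPM of Bmper. Smad7, an inhibitor of the pathway, stood at 68.9 CPM in Mog cells and 10.2 CPM in other cells. Htra1, a secreted protease, stood at 4704 CPM in the 24 cells with more astrocyte marker reads and at 8.08 CPM in Sspo cells of the Foxj1 line, against 189 CPM in Ccdc153 cells.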
